A study of Mus musculus with 26 samples.

Results

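The genes described here encode the proteasome, the protease complex that degrades ubiquitin-tagged proteins and cuts many of the peptides displayed on MHC class I. Members were chosen by name. Every gene symbol made of Psm, one letter from a to g and a number was taken, with pseudogenes left out, which gave 48 of the 46517 symbols in the expression table. They cover the alpha ring (Psma1 to Psma7), the testis-type alpha subunit Psma8, the beta ring (Psmb1 to Psmb11), the ATPases (Psmc1 to Psmc6), the other subunits and assembly factors of the regulatory particle (Psmd genes), the activators (Psme1 to Psme4), the inhibitor Psmf1 and the assembly chaperones of the core (Psmg1 to Psmg4). The rule uses no expression value, but it was chosen with earlier results of these data known.

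The 20S core of the proteasome is a barrel of alpha and beta rings, and proteins enter it through a cap. The 19S cap recognises and unfolds ubiquitinated proteins with its ATPases. The catalytic sites sit on Psmb6 (beta1), Psmb7 (beta2) and Psmb5 (beta5). Lymphocytes, and cells exposed to interferon gamma, build immunoproteasomes in which Psmb9, Psmb10 and Psmb8 take the places of Psmb6, Psmb7 and Psmb5. Cortical thymic epithelial cells, the stromal cells that display the peptides on which CD8 T cells are positively selected, use Psmb11 at the beta5 place, and this form is the thymoproteasome. Psme1 and Psme2 form PA28, a cap without ATPases that is also induced by interferon gamma.

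RNA was sequenced from thymocytes of 3 T cell receptor transgenic mouse lines, in order to ask how the self-reactivity of the receptor shapes gene expression during CD8 T cell development. TG6, with the genotype TG6tg H2b/d on a cross written as C57/BL6 x B6.C-H2d/bByJ, has low self-reactivity. F5 (F5tg Rag1KO on C57/BL6) is intermediate and OT-1 (OT-1tg Rag2KO on C57/BL6) is high. Thymocytes in early positive selection were sorted as CD4+CD8+CXCR4+CCR7- cells. Those in late positive selection were CD4+CD8+CXCR4-CCR7+. Mature CD8SP cells had lost CD4 and were sorted as CD4-CD8+CXCR4-CCR7+. These 3 stages are called early, late and mature here. Each of the 9 groups held 3 libraries, except late TG6 with 2, which gave 26 libraries. All 3 lines carry a fixed receptor transgene, and TG6 mice keep their Rag genes. The lines also differ in Rag genotype, so line and Rag genotype cannot be told apart. TG6 alone is H2b/d, so in the comparisons with TG6 the MHC haplotype cannot be told apart from them either. By the study's methods its mice were in general 3 to 10 weeks old, and the age for each library is not given in the sources used here.

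Values are normalized counts. They totalled 16134786 to 18944173 per library, with a median of 17159756, and the proteasome genes together made up between 0.304% and 0.532% of a library. Differences are log2 differences of group means on the log2(value + 1) scale, given with their standard error (SE), and a difference was called when its adjusted p was under 0.05 among the 16372 genes tested. Of the 48 proteasome genes 47 could be tested. Psma8, the alpha subunit of spermatogenic cells, reached at most 6 normalized counts and was not tested. The percentage of all tested genes called in the same direction is given as the background beside the first count of called members in each comparison. For the stage changes compared between lines, the background covers both directions together.

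A pair of mature libraries stood apart from the rest of their groups. In TG6 replicate 3 the proteasome genes summed to 96210 normalized counts, against 68363 and 67485 in the other two. The proliferation gene Mki67 read 6219.6, 7129 and 23175 in replicates 1, 2 and 3 of this group. The recombinase gene Rag1, which had its highest mean at the early stage in every line, read 696, 619.9 and 5265. In F5 replicate 2 the sum was 75230 against 61494 and 59698, with Mki67 at 7016, 17259 and 11653 in replicates 1, 2 and 3. Rag1 read 704, 2698 and 1896 in the same F5 libraries. Counts of called members are given without them where they moved, and so are proteasome gene differences whose call changed, or that were called and moved by over 1.5 times. Thymocyte markers were abundant in every group, with Cd3e, Cd8a, Cd8b1, Cd4, Rag1, Cxcr4 and Ccr7 summing to between 40570 and 150141. Of the 9 cortical epithelial markers, Foxn1, the defining transcription factor, was at 0 in every group except TG6 late, where it reached at most 0.979. Krt8 reached at most 2.9, Cxcl12 5.45, Krt18 14.3, Dll4 14.4 and Prss16 15.9, whereas Epcam read 10.2 to 47.7, Ccl25 41.1 to 137 and Ly75 251 to 1517. The 9 summed to between 360.5 and 1599 normalized counts, most of it from Ly75.

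The 31 tested members that encode standard subunits of the 20S core and the 19S cap, without the immunoproteasome and thymoproteasome subunits, had their lowest summed mean at the late stage in each line. Their summed values were 45040.0, 45639 and 48246 at the early stage in TG6, 38961 and 38551 at the late stage and 45794, 44947 and 70640.2 at the mature stage. In F5 the sums were 54309.9, 55217 and 52002, then 44343, 40654 and 37094, then 45522, 56845 and 43904. In OT-1 they were 63017, 66155 and 64245, then 48248, 47777 and 48378, then 66194, 65165 and 66213. The late libraries lay below every early library of the same line. They also lay below every mature library in TG6 and OT-1, whereas in F5 mature replicate 3 was below late replicate 1. From the early to the late stage 3 of the 31 fell in TG6, 17 in F5 and 19 in OT-1, and 0 rose. Over all tested genes 13.3%, 14% and 14% fell and 12.1%, 12.7% and 12.7% rose, so the count in TG6 was under its background. The group mean was lowest at the late stage in 30 of these 31 genes in TG6, 29 in F5 and 30 in OT-1, whereas 31.4, 31.2 and 31.3% of all tested genes had this shape. The count of genes with this shape was made after the values were seen and carries no test.

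**Figure D1:**
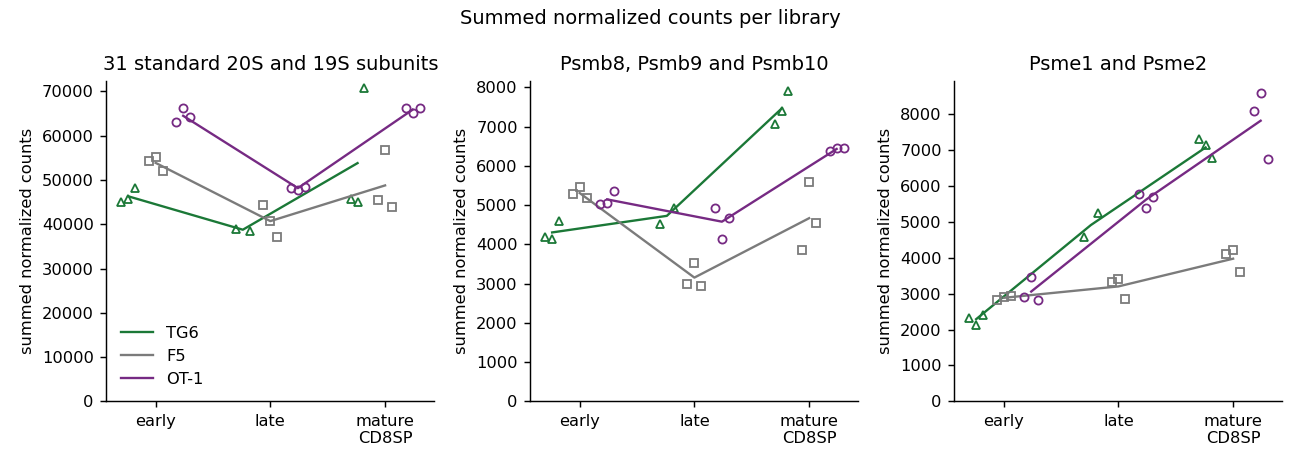
Summed normalized counts (vertical axes) of the 31 standard 20S and 19S subunits, of Psmb8, Psmb9 and Psmb10, and of Psme1 and Psme2, at each stage (horizontal axes). Points are libraries and lines join group means, with triangles for TG6, squares for F5 and circles for OT-1. The standard subunits dip at the late stage in every line, while the sum of Psme1 and Psme2 rises from stage to stage in the means of every line.

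Psmc1, an ATPase of the cap, had the deepest dip among the genes described in full. It read 1572, 1564 and 1719 at the early stage in TG6, 2045, 2278 and 2109 in F5 and 2704, 2584 and 2988 in OT-1. Late Psmc1 values were 989 and 888 in TG6, 1097, 1147 and 928 in F5 and 1400.4, 1227 and 1478 in OT-1, below the early values in every line. Mature Psmc1 values were 1198, 1168 and 2393 in TG6, 1453, 2135 and 1385 in F5 and 2243, 2179 and 2619.8 in OT-1. From early to late, Psmc1 fell by 0.79 ± 0.22 (SE; adjusted p = 0.00961) in TG6, by 1.02 ± 0.19 (SE; adjusted p = 0.0004) in F5 and by 1.01 ± 0.19 (SE; adjusted p = 0.000518) in OT-1, on the log2 scale. From the late to the mature stage it rose again, by 0.67 ± 0.22 (SE; adjusted p = 0.029) in TG6, 0.63 ± 0.19 (SE; adjusted p = 0.0254) in F5 and 0.78 ± 0.19 (SE; adjusted p = 0.00588) in OT-1. Without the libraries that stood apart the rise in TG6 was 0.34 ± 0.12 (adjusted p = 0.0492), and without TG6 replicate 3 alone the same difference was not called (adjusted p = 0.164).

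The proliferation gene Mki67 had its lowest mean at the same stage. It averaged 16847 ± 629 (SD, n = 3) at the early stage in TG6, 195 ± 0.586 (n = 2) at the late stage and 12175 ± 9538 (n = 3) at the mature stage. In OT-1 it averaged 27270 ± 6502, 1700.1 ± 500.2 and 28511 ± 1705 (n = 3 each). In F5 the means were 29953 ± 3189, 1125 ± 1744 and 11976 ± 5129 (n = 3 each). The late F5 libraries read 127, 3139 and 109 for Mki67 and 62.3, 1658 and 109 for Rag1, so replicate 2 differed from the others in both. Mean Rag1 was also lowest at the late stage in every line. It was 186 in TG6, 610 in F5 and 46.4 in OT-1 there, and 2194, 1766 and 327 at the mature stage. Mki67 thus moved with the standard subunits, and the part of cell division in their change was not tested. In bulk samples, fewer cells of a kind and less RNA per cell cannot be told apart.

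Between the early and mature stages, TG6 had the most called proteasome genes. There 22 of 47 rose and 0 fell, with a background of 19.4% rising and 15.2% falling, and the median of the members was 0.32 beside −0.03 for all tested genes. By role, 4 of 7 alpha ring genes rose, 3 of 4 noncatalytic beta genes, 0 of 3 constitutive catalytic genes, 3 of 3 immunoproteasome genes, 1 of 6 ATPases, 2 of 3 other base genes, 2 of 8 lid genes, 1 of 3 chaperones of the 19S cap, 3 of 4 activators and 3 of 4 core chaperones. Replicate 3 decided part of this. Without it, 13 members rose and 8 fell. At an unadjusted p under 0.05, limma on all libraries gave 25 that rose and 1 that fell.

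In F5, 2 members rose and 1 fell from the early to the mature stage (background 10.8% rising, 8.79% falling), and the median of the members was −0.08 beside −0.01 for all genes. Both that rose, Psme1 and Psme2, are the PA28 genes. The gene that fell was Psmd8, a lid subunit. Libraries with the same replicate number deviated together in F5, and with this pairing as a block 4 members rose and 7 fell. When libraries were scaled to their totals, 2 rose and 2 fell. Without the F5 and TG6 libraries that stood apart, 1 rose and 14 fell, Psmb8 and Psmb9 among those that fell.

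In OT-1, 6 members rose and 1 fell over the same interval (background 12.8% rising, 10.5% falling), with a median of 0.10 beside −0.01. Those that rose were Psmb9, Psmb10, Psme1, Psme2, Psme3 and the core chaperone Psmg2. The one that fell was Psme4, the gene of the activator PA200. Of the 31 standard subunits 0 were called in OT-1 with limma, and 2 rose at an unadjusted p under 0.05. Without the TG6 and F5 libraries that stood apart, which enter only through the shared spread, 11 members rose and 3 fell.

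**Figure D2:**
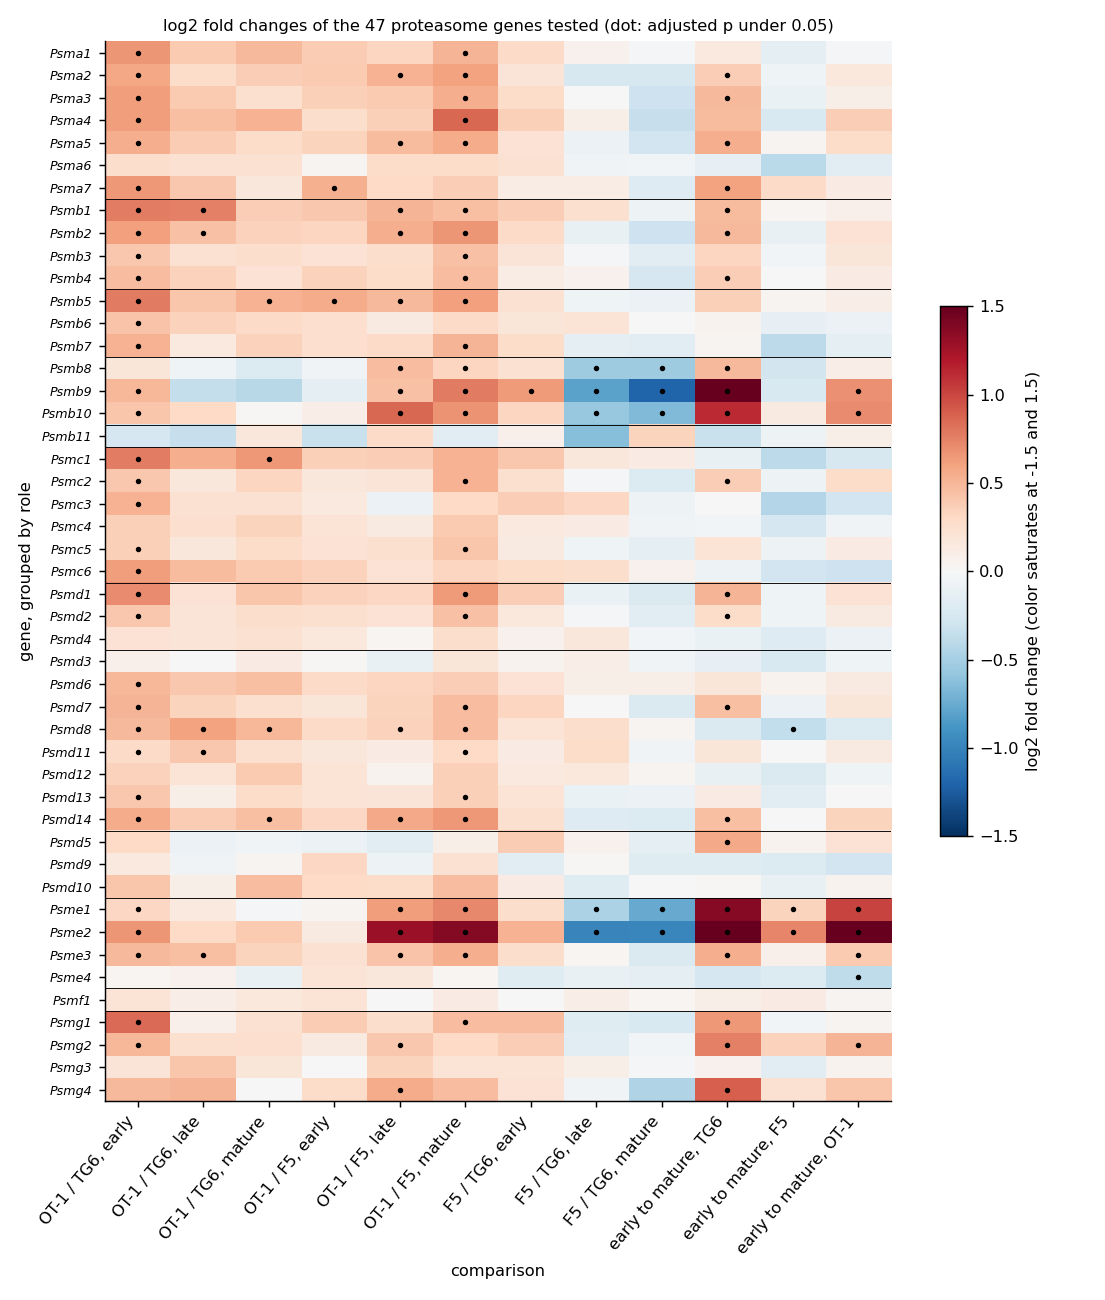
Log2 differences of the 47 tested proteasome genes, grouped by role, in each comparison of lines at each stage and of the early with the mature stage in each line. Color gives the log2 difference and saturates at −1.5 and 1.5, and a dot marks an adjusted p under 0.05. The OT-1 against TG6 column at the early stage is filled with higher values, and Psmb8, Psmb9, Psmb10, Psme1 and Psme2 carry the lower calls of F5 against TG6.

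At the early stage most proteasome genes had a higher level in OT-1 than in TG6. There 33 of 47 members were higher and 0 lower, against a background of 15.4% higher and 12.4% lower. The median member differed by 0.49, and the median of all tested genes by 0.00. The higher members were spread over the complex, with 6 of 7 alpha ring genes, 4 of 4 noncatalytic beta genes, 3 of 3 constitutive and 2 of 3 immunoproteasome catalytic genes, 5 of 6 ATPases, 2 of 3 other base genes, 6 of 8 lid genes, 3 of 4 activators and 2 of 4 core chaperones. Of the 3 chaperones of the 19S cap (Psmd5, Psmd9 and Psmd10) 0 were called with limma, and 2 were higher at an unadjusted p under 0.05. Leaving out 1 library at a time gave 22 to 38 called members. Markers differed between the same groups. Within the early gate Rag1 averaged 5491 in OT-1, which is Rag2KO, against 54642 in TG6, which keeps its Rag genes. Cd4 averaged 8026 in OT-1 against 22113 in TG6, Ccr7 779 against 147 and the proliferation gene Mki67 27270 against 16847. The 8 dendritic cell and macrophage markers summed to 382 to 1025 in OT-1 against 203 to 272 in TG6, and the 3 erythroid genes to 191 to 699.7 against 84.4 to 195. The part of these differences in the early counts was not tested.

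Psmg1, a chaperone of alpha ring assembly, had the largest difference. It read 481, 509 and 479 normalized counts in OT-1 against 281, 275 and 259 in TG6 and 380.0, 367 and 377 in F5. Every OT-1 library was above every library of the other lines. The difference from TG6 was 0.85 ± 0.15 (SE; adjusted p = 0.000238), a 1.8-fold higher level. Mature Psmg1 values were 528, 475 and 503 in OT-1, 367, 349.5 and 604 in TG6 and 344, 438 and 316 in F5. There OT-1 was higher than F5, by 0.47 ± 0.15 (SE; adjusted p = 0.0295), while the TG6 and OT-1 libraries overlapped.

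Psmb5, the constitutive beta5 subunit and the main target of proteasome inhibitor drugs, was the catalytic subunit with the largest line difference at this stage. Early Psmb5 values were 699.7, 752 and 771 in TG6, 849.6, 864 and 882 in F5 and 1210.0, 1319 and 1299.5 in OT-1. The 3 lines did not overlap and ordered as TG6, F5 and OT-1 from low to high. OT-1 exceeded TG6 by 0.78 ± 0.16 (SE; adjusted p = 0.00106) and F5 by 0.56 ± 0.16 (SE; adjusted p = 0.0252). Late Psmb5 values were 632 and 657 in TG6, 635, 669.5 and 552 in F5 and 908, 779.8 and 909 in OT-1. Mature Psmb5 values were 797, 756 and 1418 in TG6, 761, 1035 and 896 in F5 and 1422, 1254 and 1424 in OT-1, with TG6 replicate 3 inside the OT-1 range. OT-1 stayed above F5 at both stages, by 0.48 ± 0.16 (SE; adjusted p = 0.0338) and 0.62 ± 0.16 (SE; adjusted p = 0.0092), and above TG6 at the mature stage, by 0.52 ± 0.16 (SE; adjusted p = 0.0439). Without the libraries that stood apart this last difference was 0.81 ± 0.10 (adjusted p = 7.39e-06).

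Psmb6 and Psmb7, the constitutive beta1 and beta2 subunits, had smaller differences. Early Psmb6 values were 1291, 1396 and 1501 in TG6, 1628, 1576 and 1524 in F5 and 1829.6, 2002 and 1796 in OT-1, and OT-1 exceeded TG6 by 0.43 ± 0.15 (SE; adjusted p = 0.0326). Psmb7 read 1357, 1279 and 1310.0 in TG6, 1620.3, 1568 and 1587 in F5 and 1748, 1974 and 1959.8 in OT-1, and OT-1 exceeded TG6 by 0.52 ± 0.18 (SE; adjusted p = 0.0332). Both genes had OT-1 above each of the other lines with no overlap. Late Psmb6 values were 1074 and 1055 in TG6, 1466, 1158 and 1099 in F5 and 1315, 1408 and 1330 in OT-1. Late Psmb7 values were 958 and 971 in TG6, 898, 888 and 841 in F5 and 996, 986 and 1239 in OT-1. In both genes every late library was below every early library of its line. Mature Psmb6 values were 1248, 1187 and 2034 in TG6, 1424, 1619 and 1326 in F5 and 1804, 1873 and 1629.6 in OT-1, and Psmb7 read 1127, 1053 and 2107 in TG6, 1038, 1569 and 1097 in F5 and 1697, 1677 and 1812 in OT-1. At that stage OT-1 exceeded F5 in Psmb7, by 0.51 ± 0.18 (SE; adjusted p = 0.0439).

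At the late stage the count for OT-1 against TG6 was near its background with all libraries and above it without those that stood apart. There 5 of 47 members, or 10.6%, were higher and 0 lower, where 9.34% of all genes were higher and 6.21% lower. They were Psmb1 and Psmb2 of the beta ring, Psmd8 and Psmd11 of the lid, and the activator gene Psme3. Psmb1 read 1122 and 1087 in TG6, 1461, 1276 and 1204 in F5 and 1834, 1795 and 1955 in OT-1, and OT-1 was above both lines in every library, by 0.75 ± 0.15 (SE; adjusted p = 0.00138) and 0.51 ± 0.13 (SE; adjusted p = 0.0084). Psmd8 read 1597 and 1619 in TG6, 2141, 1958 and 1711 in F5 and 2493, 2359.6 and 2479 in OT-1, again without overlap of OT-1 with the other lines, and OT-1 exceeded TG6 by 0.60 ± 0.13 (SE; adjusted p = 0.00212). The median member differed by 0.26. Without the mature libraries that stood apart 19 members were higher and 0 lower.

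At the mature stage 4 members had a higher level in OT-1 than in TG6 and 0 a lower one, with a background of 4.67% and 5.08%. They were Psmb5, Psmc1, Psmd8 and Psmd14, the deubiquitinase of the lid. Psmd8 read 1844, 1774 and 2613 in TG6, 2054, 2267 and 2003 in F5 and 2981, 3045 and 2672 in OT-1, the OT-1 libraries being above all others, and differed from TG6 by 0.50 ± 0.11 (SE; adjusted p = 0.0067). This count rested on single TG6 libraries. Without replicate 3, 33 members were higher and 0 lower, and without TG6 replicate 1 or replicate 2 it was 0. At an unadjusted p under 0.05, limma on all libraries gave 22 higher and 1 lower. Mature Mki67 read 27362, 27701 and 30471 in OT-1 and 6220, 7129 and 23175 in TG6. Replicate 3 was thus the TG6 library nearest to OT-1 in this gene. The part of cell division in these counts was not tested.

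For OT-1 against F5 the counts were larger at the later stages. At the early stage 2 members were higher in OT-1, Psma7 and Psmb5, and 0 lower (background 7.81% and 4.88%). At the late stage 15 were higher and 0 lower (background 13.6% and 10.4%), and at the mature stage 27 were higher and 0 lower (background 13.3% and 10.1%). The medians over members were 0.23, 0.30 and 0.45. At an unadjusted p under 0.05 limma gave 17, 20 and 35 higher and 0 lower. Without the TG6 and F5 mature libraries that stood apart, the counts were 18, 28 and 41, all higher. Both mature comparisons share the OT-1 libraries. Mean Mki67 at the early, late and mature stages was 27270, 1700 and 28511 in OT-1, against 29953, 1125 and 11976 in F5. The part of cell division in these counts was not tested.

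F5 against TG6 gave few calls. At the early stage Psmb9 alone was higher in F5 (1 of 47, background 3.12%) and 0 were lower (background 3.35%). At the late stage 5 were lower in F5 and 0 higher (background 3.23% lower and 1.75% higher). At the mature stage 5 were lower and 0 higher (background 4.5% and 2.14%). The 5 were Psmb8, Psmb9, Psmb10, Psme1 and Psme2 at both stages, and the median over all members was −0.02 and −0.14. At an unadjusted p under 0.05 limma gave 14 higher and 0 lower at the early stage, 1 and 5 at the late stage, and 0 and 7 at the mature stage. Without TG6 late replicate 2, 0 were called at the late stage, where this line has 1 library left. Without the libraries that stood apart, 14 were higher in F5 at the early stage.

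Another choice of scaling changed these counts more than their direction. When libraries were scaled to their totals in place of the deposited scaling, the median of all genes moved to −0.11, −0.13 and −0.10 for OT-1 against TG6 at the 3 stages, and 23, 2 and 1 members were called, all higher. For OT-1 against F5 it moved to −0.10, −0.07 and −0.13, with 1, 11 and 16 members called, all higher.

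The 3 immunoproteasome genes and both PA28 genes had called lower levels in F5 than in TG6 at the late and mature stages. Of the 31 standard subunits 0 were called lower with limma at either stage, and at an unadjusted p under 0.05 it was 0 and 1. Psmb8 (chr17:34197721-34201454, + strand) and Psmb9 (chr17:34181987-34187764, − strand) lie in the MHC beside the peptide transporter genes Tap1 (chr17:34187553-34197225, + strand) and Tap2. Psmb10 lies on chr8:105935735-105938444 (− strand), and Psme1 (chr14:55578123-55581529, + strand) and Psme2 (chr14:55587441-55591113, − strand) are close neighbours. Positions are from GENCODE vM21 on GRCm38, the build of the mm10 alignment. The promoters of Psmb8, Psmb9 and Psme1 are shown because Psmb8 and Psmb9 are neighbours in the MHC whose changes differed between F5 and TG6, and Psme1 rose in all 3 lines. They are RefSeq sequences on GRCm38.p6, 5′ to 3′ on the strand of the gene, from 250 bases before the transcription start to 30 bases after it. All of these windows lie inside the GENCODE gene spans given above, so RefSeq and GENCODE place the starts differently. In Psmb8 (chr17:34197945-34198224) the capitals mark TTCNNNGAA, the letters of a gamma-activated site, an element of interferon gamma responsive promoters. In Psme1 (chr14:55578244-55578523) they mark GAAANNGAA on the opposite strand, from the core of an interferon-stimulated response element, and lie after the RefSeq start. In Psmb9 (chr17:34187301-34187580) they mark the 275 bases that also belong to the promoter window of Tap1 on the opposite strand (chr17:34187306-34187605).
Psmb8: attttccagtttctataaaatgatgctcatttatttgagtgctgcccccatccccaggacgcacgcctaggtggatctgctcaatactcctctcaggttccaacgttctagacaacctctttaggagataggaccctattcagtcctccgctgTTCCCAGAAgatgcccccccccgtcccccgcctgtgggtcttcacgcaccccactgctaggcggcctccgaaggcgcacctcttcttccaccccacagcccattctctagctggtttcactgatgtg
Psme1: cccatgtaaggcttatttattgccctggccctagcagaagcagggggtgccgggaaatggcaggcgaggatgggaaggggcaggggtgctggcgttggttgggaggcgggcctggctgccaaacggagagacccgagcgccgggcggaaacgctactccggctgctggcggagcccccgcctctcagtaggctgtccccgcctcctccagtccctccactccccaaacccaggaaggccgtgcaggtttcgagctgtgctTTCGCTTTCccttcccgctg
Psmb9: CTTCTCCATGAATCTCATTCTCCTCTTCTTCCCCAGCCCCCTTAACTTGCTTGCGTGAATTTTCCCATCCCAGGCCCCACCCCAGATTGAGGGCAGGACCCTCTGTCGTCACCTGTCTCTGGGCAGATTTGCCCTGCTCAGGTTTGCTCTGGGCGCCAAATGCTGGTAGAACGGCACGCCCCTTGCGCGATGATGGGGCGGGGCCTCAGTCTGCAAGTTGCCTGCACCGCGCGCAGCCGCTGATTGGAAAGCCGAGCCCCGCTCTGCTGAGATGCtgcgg

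These matches are a description of letters, not of binding. Windows from 250 bases before to 50 bases after the start were available for 40 of the 48 members and for 27025 genes in all (32851 windows), and both strands were searched. GAAANNGAA was in 7 members (Psmb3, Psmb4, Psmc2, Psmd4, Psmd9, Psme1 and Psmg4), and 9.76% of all genes with a window held it. TTCNNNGAA was in Psmb8, Psmd2 and Psmg1 and in 9.55% of genes, and TGACNNNGC, the core of the antioxidant response element, in 6 members and 13.99% of genes. The other motifs searched were CCAAT (14 members, 41.06% of genes) and TGACGTCA (0 members, 2.03%). No match to one motif overlapped a match to another in a window of a member.

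Psmb9 had the largest difference between the early and the mature stage among the catalytic subunits in TG6. Early Psmb9 values were 568, 622 and 564 in TG6, 856, 1012 and 862 in F5 and 809.9, 861 and 802 in OT-1. TG6 was below both other lines in every library, and F5 exceeded it by 0.63 ± 0.16 (SE; adjusted p = 0.0155) and OT-1 by 0.50 ± 0.16 (SE; adjusted p = 0.0222). Late Psmb9 values were 884 and 1090.0 in TG6, 480.0, 651 and 566 in F5 and 787, 779.9 and 725 in OT-1. Mature Psmb9 values were 1771, 1797 and 1766 in TG6, 566, 1061 and 769 in F5 and 1175, 1467 and 1363 in OT-1. The order had turned by then, with TG6 highest, OT-1 between and F5 lowest, and no library of one line lay inside the range of another.

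Over the whole interval Psmb9 rose by 1.60 ± 0.16 (SE; adjusted p = 3.45e-08) in TG6, a 3.04-fold change, and by 0.69 ± 0.16 (SE; adjusted p = 0.00229) in OT-1. In F5 the difference was -0.23 ± 0.16 (SE; adjusted p = 0.356), which was not called. Without the libraries that stood apart it was -0.46 ± 0.14 (adjusted p = 0.0185), a fall, and the rise in TG6 was 1.61 ± 0.14 (adjusted p = 1.21e-08). In F5 Psmb9 was below TG6 by 0.81 ± 0.18 (SE; adjusted p = 0.00616) at the late stage and by 1.20 ± 0.16 (SE; adjusted p = 1.34e-05) at the mature stage. The change from the early to the mature stage differed between lines when tested as an interaction, by -1.84 ± 0.22 (SE; adjusted p = 2.88e-05) for F5 against TG6, -0.91 ± 0.22 (SE; adjusted p = 0.0178) for OT-1 against TG6 and 0.92 ± 0.22 (SE; adjusted p = 0.0342) for OT-1 against F5.

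Psmb10, the beta2 subunit of the immunoproteasome, also rose in TG6 and OT-1. It read 605, 609 and 586 at the early stage in TG6, 799.9, 714 and 738 in F5 and 760.4, 800.3 and 849.9 in OT-1. Late Psmb10 values were 765 and 874 in TG6, 583, 523 and 553 in F5 and 1108, 865 and 1064 in OT-1. Mature Psmb10 values were 1240.1, 1397 and 1284 in TG6, 764, 901 and 814 in F5 and 1278, 1321 and 1354 in OT-1. F5 lay below TG6 and OT-1 at both later stages without overlap, and TG6 and OT-1 overlapped. Psmb10 rose from the early to the mature stage by 1.12 ± 0.10 (SE; adjusted p = 5.14e-09) in TG6 and 0.71 ± 0.10 (SE; adjusted p = 9.29e-06) in OT-1, and the difference in F5 was 0.14 ± 0.10 (SE; adjusted p = 0.379). F5 against TG6 was -0.56 ± 0.11 (SE; adjusted p = 0.00186) at the late stage and -0.66 ± 0.10 (SE; adjusted p = 6e-05) at the mature stage.

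Psmb8, the beta5 subunit of the immunoproteasome, had the smallest difference of the 3 between the early and the mature stage in TG6 and OT-1. Early Psmb8 values were 3027, 2899 and 3438 in TG6, 3637, 3742 and 3573 in F5 and 3451, 3399 and 3712 in OT-1. Late Psmb8 values were 2868 and 2976 in TG6, 1923, 2354 and 1834 in F5 and 3036, 2497 and 2882 in OT-1, and at the mature stage 4063, 4203 and 4866 in TG6, 2535, 3629 and 2969 in F5 and 3939, 3666 and 3737 in OT-1. F5 went from above TG6 in every early library to below it in every late and mature library. Psmb8 fell from the early to the late stage by 0.85 ± 0.11 (SE; adjusted p = 8.95e-06) in F5 and by 0.33 ± 0.11 (SE; adjusted p = 0.0359) in OT-1 on the log2 scale. Over the whole interval it rose in TG6 by 0.49 ± 0.11 (SE; adjusted p = 0.00187), with differences of 0.10 ± 0.11 (SE; adjusted p = 0.591) in OT-1 and -0.28 ± 0.11 (SE; adjusted p = 0.0999) in F5. Without the libraries that stood apart, the value in F5 was -0.41 ± 0.10 (adjusted p = 0.00559), a fall. The interaction of F5 with TG6 was -0.76 ± 0.16 (SE; adjusted p = 0.00724).

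**Figure D3:**
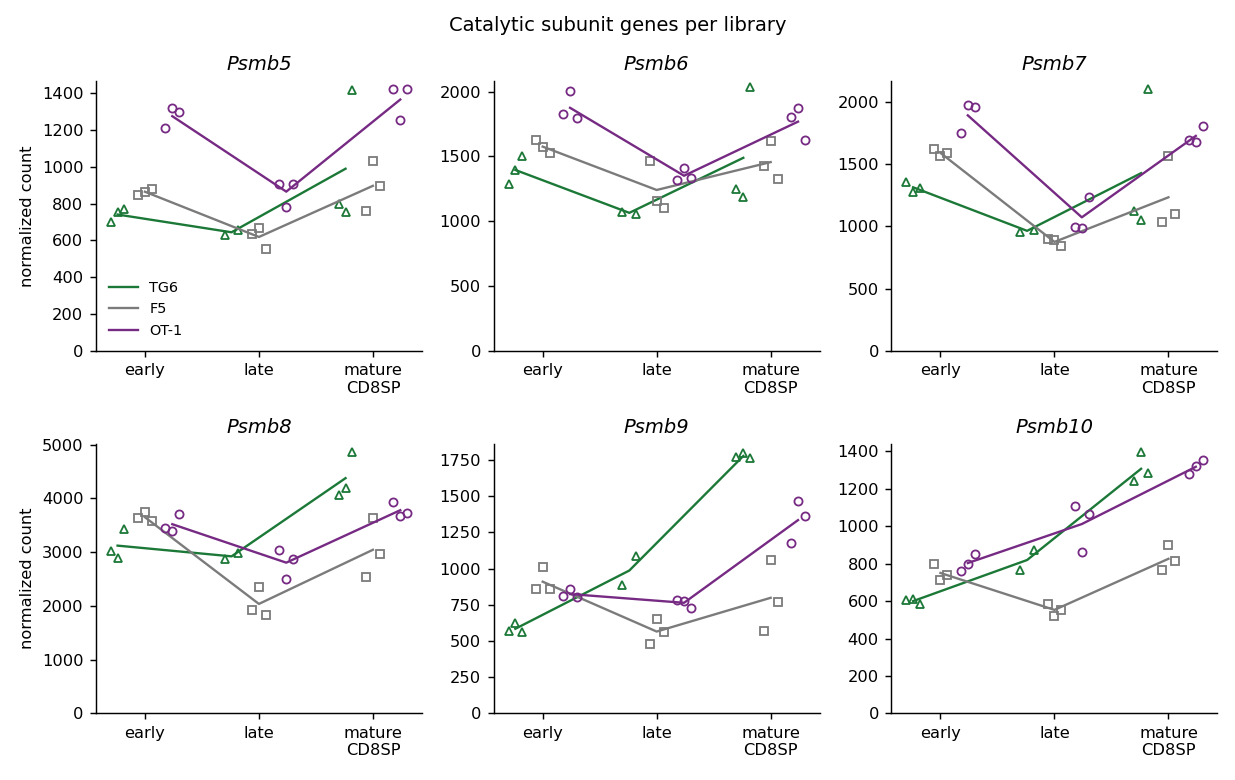
Normalized counts (vertical axes) of the constitutive catalytic subunits Psmb5, Psmb6 and Psmb7 and the immunoproteasome subunits Psmb8, Psmb9 and Psmb10 at each stage (horizontal axes). Points are libraries and lines join group means, with triangles for TG6, squares for F5 and circles for OT-1. In Psmb9, TG6 goes from the lowest line at the early stage to the highest at the mature stage.

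Psme2, the beta subunit of PA28, had the largest difference between the early and the mature stage of all tested members in each line. It read 617, 488 and 539 at the early stage in TG6, 1516 and 1553 at the late stage and 2764, 2400.0 and 2577 at the mature stage. In OT-1 it read 754, 1267 and 675, then 1870.3, 1688 and 2122, then 3631, 3979 and 2686. In F5 it read 696, 744 and 934, then 766, 949.7 and 628, then 1459, 1538 and 985. The late libraries were already above the early ones in TG6 and OT-1, whereas in F5 early and late overlapped. From the early to the mature stage Psme2 rose by 2.24 ± 0.21 (SE; adjusted p = 1.85e-08) in TG6, a 4.72-fold change, by 1.97 ± 0.21 (SE; adjusted p = 4.04e-07) in OT-1, a 3.92-fold change, and by 0.73 ± 0.21 (SE; adjusted p = 0.0159) in F5, a 1.66-fold change. Without the TG6 and F5 libraries that stood apart, the change in F5 was 0.61 ± 0.24 (adjusted p = 0.0668).

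Between lines Psme2 was highest in OT-1 at the late stage and lowest in F5 at both later stages. OT-1 exceeded F5 by 1.29 ± 0.21 (SE; adjusted p = 9.47e-05) at the late stage and by 1.38 ± 0.21 (SE; adjusted p = 7.35e-05) at the mature stage, and F5 against TG6 was -0.99 ± 0.23 (SE; adjusted p = 0.0121) and -0.98 ± 0.21 (SE; adjusted p = 0.00389). The interactions were -1.51 ± 0.30 (SE; adjusted p = 0.00391) for F5 against TG6 and 1.24 ± 0.30 (SE; adjusted p = 0.0328) for OT-1 against F5. Psme2b, a near-identical copy of Psme2 whose reads cannot be separated from it with certainty, read 3 to 15 normalized counts in TG6 at the early stage, 110 and 115 at the late stage and 181 to 386 at the mature stage, against 43 to 145 in F5 mature CD8SP. With the values of both genes summed, the rise from the early to the mature stage was 2.37 in TG6, 2.05 in OT-1 and 0.83 in F5, and each was called with limma (adjusted p = 3.13e-09, 1.04e-07 and 0.00411).

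Psme1, the alpha subunit of PA28, read 1697, 1649 and 1874 at the early stage in TG6, 3049.7 and 3696 at the late stage and 4542, 4722 and 4192 at the mature stage. In OT-1 it read 2146, 2191 and 2137, then 3898, 3704 and 3555, then 4454, 4613 and 4069, and in F5 2122, 2157 and 1994, then 2562, 2464 and 2229.8, then 2631, 2686 and 2616. TG6 was lowest at the early stage and F5 lowest at both later stages, without overlap in either case. Psme1 rose by 1.37 ± 0.08 (SE; adjusted p = 1.6e-11) in TG6, 1.02 ± 0.08 (SE; adjusted p = 6.61e-09) in OT-1 and 0.34 ± 0.08 (SE; adjusted p = 0.00422) in F5. F5 against TG6 was -0.48 ± 0.09 (SE; adjusted p = 0.0018) at the late stage and -0.76 ± 0.08 (SE; adjusted p = 6.86e-07) at the mature stage, and the interaction was -1.03 ± 0.11 (SE; adjusted p = 1.82e-05).

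**Figure D4:**
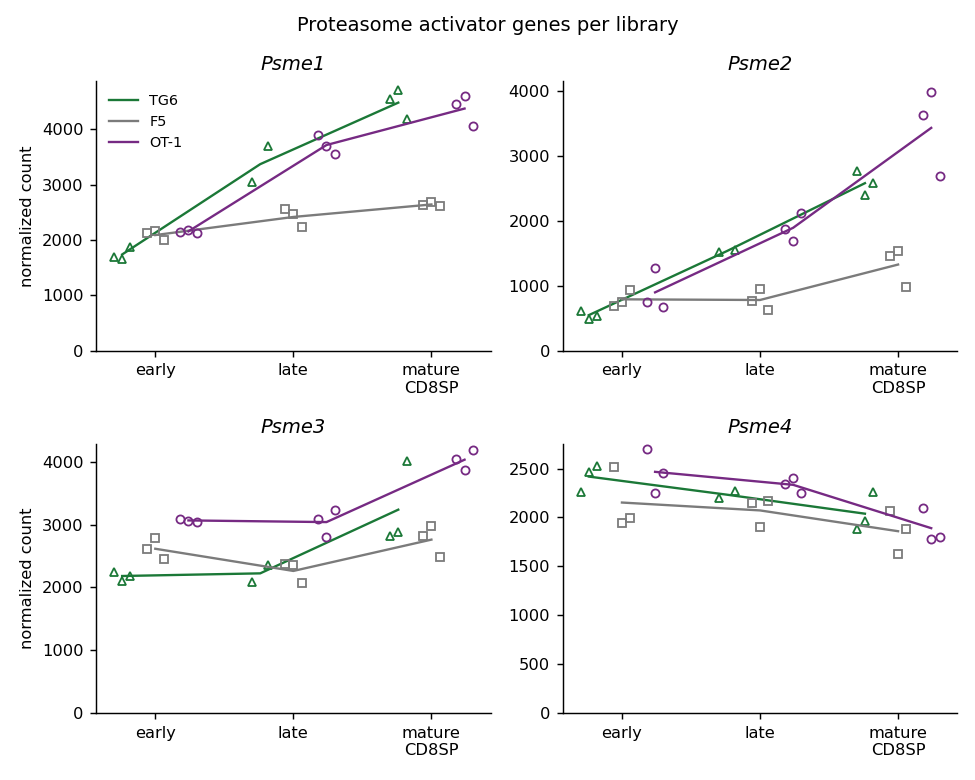
Normalized counts (vertical axes) of the activator genes Psme1, Psme2, Psme3 and Psme4 at each stage (horizontal axes). Points are libraries and lines join group means, with triangles for TG6, squares for F5 and circles for OT-1. Psme1 and Psme2 rise steeply in TG6 and OT-1 and less in F5, and Psme4 stays within a narrow range.

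Psme3, which encodes the nuclear PA28 gamma, read 2251, 2106 and 2189 at the early stage in TG6, 2615, 2784 and 2446 in F5 and 3093, 3058 and 3044 in OT-1. Late Psme3 values were 2085 and 2364 in TG6, 2368, 2353 and 2067 in F5 and 3092, 2799 and 3225 in OT-1, and at the mature stage 2821, 2878 and 4009 in TG6, 2816, 2981 and 2483 in F5 and 4042, 3869 and 4177 in OT-1. OT-1 was above both lines at the first 2 stages in every library, and TG6 replicate 3 overlapped it at the mature stage. OT-1 exceeded TG6 by 0.49 ± 0.11 (SE; adjusted p = 0.00183) and 0.45 ± 0.12 (SE; adjusted p = 0.0136), and F5 by 0.55 ± 0.11 (SE; adjusted p = 0.000989) at the mature stage. From the early to the mature stage Psme3 rose by 0.55 ± 0.11 (SE; adjusted p = 0.000333) in TG6 and 0.39 ± 0.11 (SE; adjusted p = 0.00968) in OT-1, and the difference in F5 was 0.08 ± 0.11 (SE; adjusted p = 0.706). Psme4 ranged between 1632 and 2699.5 over all 26 libraries. In OT-1 it read 2699.5, 2249 and 2449.8 at the early stage and 2095, 1779 and 1799 at the mature stage, without overlap, and fell by 0.38 ± 0.11 (SE; adjusted p = 0.0125) on the log2 scale from the early to the mature stage.

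Among the proteasome genes, the called differences between lines in the stage change lay in 5 genes when all libraries were used without the replicate number as a block. The change from the early to the mature stage differed between F5 and TG6 in 5 of 47 members (Psmb8, Psmb9, Psmb10, Psme1 and Psme2), with a background of 4.4% of all genes. The backgrounds here cover both directions together. Between OT-1 and F5 it differed in 4 (Psmb9, Psmb10, Psme1 and Psme2, background 1.64%), and between OT-1 and TG6 in Psmb9 alone (1 of 47, background 4.2%). Without the mature libraries that stood apart the counts were 8, 12 and 2. At an unadjusted p under 0.05, limma on all libraries gave 21, 8 and 7 members. With the replicate number as a block, more members were called for F5 against TG6 and for OT-1 against TG6, as given in the last section.

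The ratio of an immunoproteasome subunit to the constitutive subunit of the same site was taken within each library, where the scaling of the library cancels. The log2 ratio of Psmb9 to Psmb6 was -1.18, -1.16 and -1.41 at the early stage in TG6, -0.28 and 0.05 at the late stage and 0.51, 0.60 and -0.20 at the mature stage. In F5 it was -0.93, -0.64 and -0.82, then -1.61, -0.83 and -0.96, then -1.33, -0.61 and -0.79. In OT-1 it was -1.18, -1.22 and -1.16, then -0.74, -0.85 and -0.87, then -0.62, -0.35 and -0.26. The ratio rose without overlap of the early and mature libraries in TG6 and OT-1, and the groups overlapped in F5. The change was 1.55 in TG6 (1.80 without replicate 3), −0.11 in F5 (−0.26 without replicate 2) and 0.78 in OT-1, and over the 3 lines it averaged 0.74 on the log2 scale (exact permutation test, two-sided, adjusted p = 0.00713).

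At the beta2 site the log2 ratio of Psmb10 to Psmb7 was -1.17, -1.07 and -1.16 at the early stage in TG6 and 0.14, 0.41 and -0.71 at the mature stage. It went from -1.02, -1.13 and -1.10 to -0.44, -0.80 and -0.43 in F5 and from -1.20, -1.30 and -1.20 to -0.41, -0.34 and -0.42 in OT-1. Every mature library was above every early library of its line. The late values were -0.32 and -0.15 in TG6, -0.62, -0.76 and -0.60 in F5 and 0.15, -0.19 and -0.22 in OT-1, and every late OT-1 library was above every mature one. The changes of 1.07 in TG6, 0.53 in F5 and 0.84 in OT-1 averaged 0.82 on the log2 scale (exact permutation test, two-sided, adjusted p = 0.00075). The unadjusted p of this exact test, 0.00025, is the smallest that its 8000 arrangements allow. Both subunits of the ratio moved. In F5 neither gene was called between the early and mature stages. There mean Psmb10 went from 750 to 826, while mean Psmb7 went from 1592 down to 1235. In OT-1 mean Psmb7 was 1894, 1073 and 1729 at the early, late and mature stages, and mean Psmb10 was 804, 1012 and 1318.

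At the beta5 site the log2 ratio of Psmb8 to Psmb5 was already high at the early stage, at 2.11, 1.95 and 2.15 in TG6, 2.10, 2.11 and 2.02 in F5 and 1.51, 1.36 and 1.51 in OT-1. The late values were 2.18 and 2.18 in TG6, 1.60, 1.81 and 1.73 in F5 and 1.74, 1.68 and 1.66 in OT-1, with F5 and OT-1 overlapping. Its mature values were 2.35, 2.47 and 1.78 in TG6, 1.73, 1.81 and 1.73 in F5 and 1.47, 1.55 and 1.39 in OT-1. Every mature F5 library was below every early one, and the groups overlapped in TG6 and OT-1. The ratio changed by 0.13 in TG6 (0.34 without replicate 3), −0.32 in F5 (−0.34 without replicate 2) and 0.01 in OT-1, and the mean change was -0.06 on the log2 scale (exact permutation test, two-sided, adjusted p = 0.503). Averaged over the stages this ratio was lowest in OT-1. OT-1 minus TG6 was -0.61 on the log2 scale (exact permutation test, two-sided, adjusted p = 0.00225), and OT-1 minus F5 was -0.31 on the log2 scale (exact permutation test, two-sided, adjusted p = 0.0101). F5 minus TG6 was -0.30 on the log2 scale (exact permutation test, two-sided, adjusted p = 0.0281).

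For the beta1 ratio OT-1 minus TG6 was -0.45 on the log2 scale (exact permutation test, two-sided, adjusted p = 0.027), F5 minus TG6 -0.59 on the log2 scale (exact permutation test, two-sided, adjusted p = 0.0656) and OT-1 minus F5 0.14 on the log2 scale (exact permutation test, two-sided, adjusted p = 0.421). For the beta2 ratio the values were -0.10 on the log2 scale (exact permutation test, two-sided, adjusted p = 0.473) for OT-1 minus TG6, 0.20 on the log2 scale (exact permutation test, two-sided, adjusted p = 0.0656) for OT-1 minus F5 and -0.29 on the log2 scale (exact permutation test, two-sided, adjusted p = 0.0656) for F5 minus TG6. The 9 line tests were adjusted together, as were the 3 stage tests. The line tests took libraries of different stages as independent, although those with the same replicate number deviated together in F5. No line test with the replicate number as a block was run, so their p-values may be too small if a number marks the same mouse. Leaving out 1 library at a time ended the call for Psmb8/Psmb5 in F5 minus TG6 in 9 cases and for Psmb9/Psmb6 in OT-1 minus TG6 in 8.

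**Figure D5:**
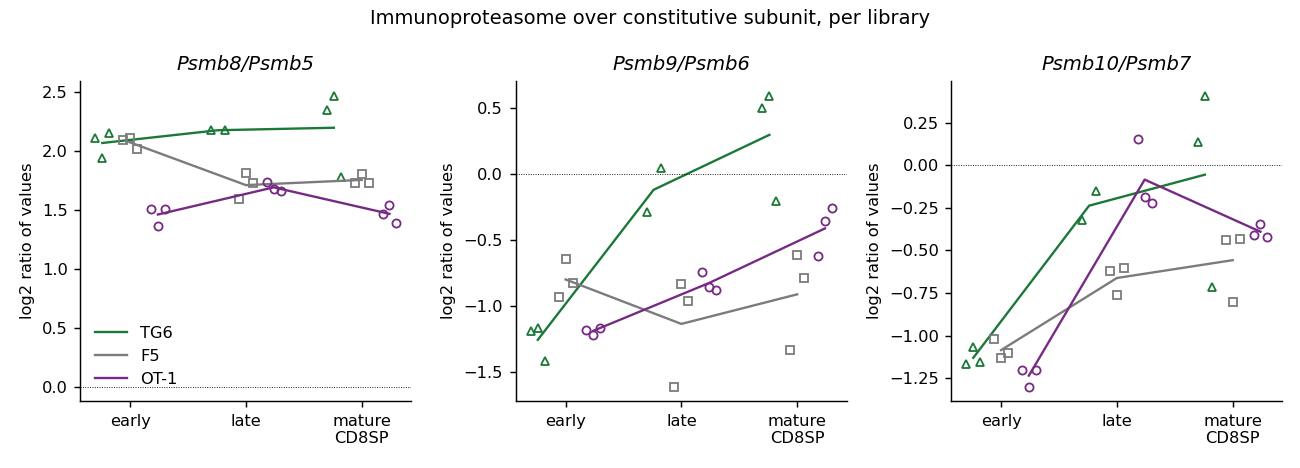
Log2 ratio of each immunoproteasome subunit to the constitutive subunit of the same catalytic site within a library (vertical axes), by stage (horizontal axes). Points are libraries and lines join group means, with triangles for TG6, squares for F5 and circles for OT-1. The beta1 ratio rises by 1.55 in TG6 and 0.78 in OT-1 and the beta2 ratio rises in every line, while the beta5 ratio is lowest in OT-1 at both the early and the mature stage.

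Per kilobase of the principal transcript, which allows levels of different genes to be compared, Psmb8 or Psmb6 was the most abundant catalytic subunit in each of the 9 groups. In TG6 at the early stage Psmb8 had 1917 ± 173 and Psmb6 1749 ± 132 normalized counts per kilobase (SD, n = 3), which overlapped within their spread. Psmb9 had 432 ± 24.1 in that group and 1315 ± 12.2 in TG6 mature CD8SP, and so went from the sixth place of 7 to the third. In OT-1 mature CD8SP it remained in the sixth place, at 988 ± 109, beside Psmb10 at 1005 ± 29. Psmb11 had 4.39 to 8.32 per kilobase as group means and was the lowest of the catalytic subunits in every group.

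Psmb11, the thymoproteasome subunit, was thus present at a trace level. Its values were 26.7, 26.8 and 14.5 in TG6 at the early stage, 28.3, 17.4 and 25.2 in F5 and 21, 22.1 and 12.8 in OT-1. Late Psmb11 values were 28.4 and 42.3 in TG6, 24.5, 32.1 and 13.2 in F5 and 31.1, 31.4 and 20.3 in OT-1, and at the mature stage 27.3, 20.3 and 8.88 in TG6, 15.2, 23.6 and 29.1 in F5 and 25.7, 23 and 12.1 in OT-1. The lines overlapped at each stage, and in the limma comparisons of lines, of the early with the mature stage and of these changes between lines Psmb11 was called 0 times, with 0 at an unadjusted p under 0.05. Epithelial markers in the same libraries ranged from 0 (Foxn1 in all but 1 library) to the levels of Ccl25 and Ly75 given above, and the part of epithelial RNA in the Psmb11 values was not tested.

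Genes known to regulate or neighbour the immunoproteasome genes were also read. Nlrc5, the transactivator of MHC class I genes, averaged 218 ± 40.6 (SD, n = 3) at the early stage in TG6, 271 ± 37.4 in F5 and 501 ± 114 in OT-1 (n = 3 each). Its mature means were 7704 ± 2311, 1613 ± 117 and 3155 ± 643 in the same order. It rose in all 3 lines, by 5.11 ± 0.21 (SE; adjusted p = 5.78e-14), 2.57 ± 0.21 (SE; adjusted p = 6.75e-09) and 2.66 ± 0.21 (SE; adjusted p = 4.35e-09).

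Tap1, which shares a promoter region with Psmb9, averaged 2017 ± 119 at the early stage in TG6 and 5601 ± 1273 at the mature stage. In F5 the means were 2258 ± 101 and 2078 ± 410.1, and in OT-1 2045 ± 150 and 3848 ± 288. The change in F5 differed from that in TG6 by -1.59 ± 0.22 (SE; adjusted p = 8.55e-05) and that in OT-1 from F5 by 1.05 ± 0.22 (SE; adjusted p = 0.0108). Exons of Tap1 and Psmb9 share 212 bases on opposite strands, and whether the counting used strand is not given in the sources used here, so a part of their reads cannot be told apart. Psmb8 likewise shares 498 exon bases with Gm20496, which reached at most 131 normalized counts. Tap2 was lower in OT-1 than in TG6 at each stage, with differences of -0.44 ± 0.08 (SE; adjusted p = 0.000271), -0.62 ± 0.09 (SE; adjusted p = 4e-05) and -0.46 ± 0.08 (SE; adjusted p = 0.000627).

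Of the 5 regulators and neighbours (Irf1, Irf8, Nlrc5, Tap1 and Tap2), 4 were lower in F5 than in TG6 at the late stage and 3 at the mature stage, and 0 were called at the early stage, beside 3.23%, 4.5% and 3.35% of all tested genes lower in F5. In OT-1 against TG6 3 of the 5 were higher and 1 lower at the early stage (background 15.4% and 12.4%). At the later stages 3 and 4 were lower (background 6.21% and 5.08%), where 0 immunoproteasome or activator genes were called lower. Markers of dendritic cells and macrophages moved in part the same way. The 8 markers summed to 203 to 272 normalized counts in TG6 at the early stage, 592 to 1052 at the late stage and 1131 to 2428 at the mature stage. In F5 the sums were 84.8 to 547, then 55.3 to 113, then 262 to 907, and in OT-1 382 to 1025, then 406 to 473, then 827 to 1203. Most of these sums came from Cd74, H2-Aa and H2-Ab1, which serve MHC class II antigen presentation. In TG6, between the early and the mature stage, the mean of the dendritic cell gene Itgax went from 2.61 to 32.3 and that of Xcr1 from 21.4 to 67.98. The macrophage markers C1qa and Csf1r had means of 2.61 and 3.08 at the early stage in TG6, 0 and 6.75 at the late stage and 1.31 and 2.76 at the mature stage, and both were at 0 in every late F5 library. In OT-1, from early to mature, the means went the other way for Itgax (33 to 19.8), Lyz2 (57.6 to 26.7), C1qa (20 to 7.58) and Csf1r (27 to 12.4), and Xcr1 went from 16.9 to 27. Lyz2 averaged 14.9 at both stages in TG6. The part of such cells in the immunoproteasome and PA28 values was not tested.

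Other genes of the proteasome pathway that the symbol rule did not take in were read from a list of 16. At the early stage 8 of them had a higher level in OT-1 than in TG6 and 0 a lower one, beside 15.4% and 12.4% of all tested genes. The largest differences were those of Pomp, the chaperone that matures the 20S core, at 0.97 ± 0.15 (SE; adjusted p = 7.36e-05), and of Txnl1, a thioredoxin bound to the 19S cap, at 0.90 ± 0.19 (SE; adjusted p = 0.00131). The others were Shfm1 (the subunit Sem1), the deubiquitinases Uchl5 and Usp14, the unfoldase gene Vcp, the shuttle factor Rad23b, and Zfand5. At the late stage 2 had a higher level in OT-1 and at the mature stage 2, with 0 lower, beside 9.34% and 4.67% higher over all genes. Against F5, OT-1 had more Pomp at each stage, by 0.68 ± 0.15 (SE; adjusted p = 0.00474), 0.65 ± 0.15 (SE; adjusted p = 0.00376) and 0.64 ± 0.15 (SE; adjusted p = 0.00525).

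From the early to the mature stage 3 of the 16 rose in TG6 and 1 fell, 0 were called in F5, and 2 rose and 1 fell in OT-1. Over all tested genes 19.4% rose in TG6 and 12.8% in OT-1, so both counts of risen genes were near the background. Nfe2l1, the transcription factor that induces proteasome genes when proteasome activity is short, rose in TG6 by 0.52 ± 0.17 (SE; adjusted p = 0.0211). From the early to the late stage 1 of the 16 rose and 1 fell in TG6, 2 rose and 5 fell in F5, and 1 rose and 7 fell in OT-1. Over all tested genes 12.1% rose and 13.3% fell in TG6, with 12.7% and 14% in F5 and 12.7% and 14% in OT-1. Nfe2l1 was among those that rose, by 0.82 ± 0.19 (SE; adjusted p = 0.0024) in TG6, 0.58 ± 0.17 (SE; adjusted p = 0.0139) in F5 and 0.53 ± 0.17 (SE; adjusted p = 0.0248) in OT-1.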

How the data were processed

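RNA from sorted thymocytes of 26 libraries was analysed. The deposited signal is a table of normalized counts, which the authors obtained with Trimmomatic 0.32 (trimming), Bowtie2 2.3.2 (alignment to mm10), RSEM 1.2.31 (quantification) and DESeq2 (median of ratio scaling). These versions are from the submitters' processing notes. Between 42.4 and 44.3% of values were whole reads within a tolerance of 0.01 of a read, so reads were not recovered, and tests used log2(value + 1). The total of normalized counts does not give the depth of a library.

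Genes that reached 10 in 2 or more libraries were kept (16372). The limma package 3.58.1 in R 4.3.3 fitted 1 mean per group (9 groups, 17 residual degrees of freedom, trend in the prior variance), with Benjamini-Hochberg adjustment over all tested genes. The stage change was compared between lines as an interaction. Ratios of subunits were compared by exact permutation within line or within stage, two-sided. The fits were tested on simulated data.

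Members were all symbols of the form Psma to Psmg with a number. Values of single libraries are given for the catalytic subunits, Psme1 to Psme3 and the 3 members per direction with the largest called difference between OT-1 and TG6, stage by stage. For Psme4 the range and the early and mature OT-1 values are given. The 16 pathway genes, the 5 regulators and neighbours and the markers were fixed lists, and 2 further listed genes are not reported here. Members and lists were chosen with earlier results of these data known. Besides the markers in the report, the B cell list was mostly Ighm, and the 3 erythroid genes summed to 20.3 to 699.7.

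The labels number replicates within a group and do not say whether a number marks 1 mouse, so p-values measure the spread between these samples. Libraries with the same number correlated in their deviations from the group means at 0.106 to 0.34 in F5 (9 of 9 pairs over 0.1), 0.0189 to 0.178 in OT-1 (5 of 9) and 0.023 to 0.274 in TG6 (2 of 7). Only in F5 were all pairs over 0.1.

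The alternatives changed the pseudocount (0.1 or 5), the filter (none, or a mean value of 50 or more), the scaling (library totals, quantiles), the trend, the groups in the fit, the block by replicate number and the libraries, each left out in turn. Leaving out both mature libraries that stood apart (each within its line for the ratios), the interactions with F5 and the sum of Psme2 and Psme2b were chosen after seeing the data.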

Additional observations from a re-analysis of the deposited data

Results flagged for a closer look

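The change from the early to the mature stage differed between lines, by an interaction test, in the following genes. For F5 against TG6 the difference of log2 changes was -0.76 ± 0.16 (SE; adjusted p = 0.00724) for Psmb8, -1.84 ± 0.22 (SE; adjusted p = 2.88e-05) for Psmb9, -0.98 ± 0.14 (SE; adjusted p = 0.000106) for Psmb10, -1.03 ± 0.11 (SE; adjusted p = 1.82e-05) for Psme1 and -1.51 ± 0.30 (SE; adjusted p = 0.00391) for Psme2, each lower in F5. For OT-1 against F5 it was 0.92 ± 0.22 (SE; adjusted p = 0.0342) for Psmb9, 0.58 ± 0.14 (SE; adjusted p = 0.0308) for Psmb10, 0.68 ± 0.11 (SE; adjusted p = 0.00246) for Psme1 and 1.24 ± 0.30 (SE; adjusted p = 0.0328) for Psme2, each higher in OT-1. For OT-1 against TG6 only Psmb9 differed among the 47 proteasome genes in the fit to all libraries without a block, by -0.91 ± 0.22 (SE; adjusted p = 0.0178). The cause of these differences was not tested.

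Genes outside the proteasome that were read beside it differed in the same test. For F5 against TG6 the values were -0.58 ± 0.15 (SE; adjusted p = 0.0318) for the deubiquitinase gene Usp14, -1.19 ± 0.28 (SE; adjusted p = 0.0135) for Irf1, -2.53 ± 0.29 (SE; adjusted p = 1.82e-05) for Nlrc5 and -1.59 ± 0.22 (SE; adjusted p = 8.55e-05) for Tap1. For OT-1 against TG6 they were -1.56 ± 0.28 (SE; adjusted p = 0.00121) for Irf1, -2.04 ± 0.57 (SE; adjusted p = 0.0443) for Irf8 and -2.45 ± 0.29 (SE; adjusted p = 2.37e-05) for Nlrc5. Tap1 differed between OT-1 and F5 by 1.05 ± 0.22 (SE; adjusted p = 0.0108). Irf1 and Irf8 encode transcription factors of the interferon response.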

How the results depend on the processing

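Leaving out 1 library at a time gave, for OT-1 against TG6 at the early, late and mature stages, 22 to 38, 3 to 16 and 0 to 33 called members (33, 5 and 4 with all libraries). For OT-1 against F5 the ranges were 0 to 14, 9 to 23 and 15 to 38 (2, 15 and 27), and for F5 against TG6 0 to 11, 0 to 5 and 5 to 6 (1, 5 and 5). From the early to the mature stage they were 16 to 25 in TG6 (22), 1 to 10 in F5 (3) and 6 to 10 in OT-1 (7), and for the interactions 0 to 2 for OT-1 against TG6 (1), 1 to 4 for OT-1 against F5 (4) and 5 to 8 for F5 against TG6 (5). The upper ends came mostly without TG6 mature CD8SP replicate 3. Without it and F5 mature CD8SP replicate 2 the counts that moved were 19 and 36 for OT-1 against TG6 at the later stages, 18, 28 and 41 for OT-1 against F5, 14 for F5 against TG6 at the early stage, 15 in F5 and 14 in OT-1 from the early to the mature stage, and 2, 12 and 8 for the interactions.

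With only the 2 groups compared, which leaves fewer libraries, the counts that moved were 15 and 0 for OT-1 against TG6 at the later stages, 13, 9 and 15 for OT-1 against F5, 9, 0 and 2 for F5 against TG6, and 10, 2 and 13 from the early to the mature stage in TG6, F5 and OT-1. Total scaling gave 2 and 1 for OT-1 against TG6 at the later stages, 1 and 16 for OT-1 against F5 at the early and mature stages, and 2 for the OT-1 against F5 interaction. No filter gave 1 for OT-1 against TG6 at the mature stage and 2 for that interaction, no trend gave 1 and 2, and a mean of at least 50 gave 7 for OT-1 against TG6 at the mature stage. For F5 against TG6 at the early stage the pseudocount of 0.1 gave 2 and a mean of at least 50 or quantile normalization gave 3. The cause was not tested.

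With the replicate number as a block, 11 members were called in F5, 26 in TG6 and 10 in OT-1 from the early to the mature stage, and 3, 4 and 10 for the interactions of OT-1 with TG6, OT-1 with F5 and F5 with TG6. The block moved no other count of called members by over 1.5 times, and outside F5 the samples share only a number.

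The mean log2 ratio of Psmb8 to Psmb5 between the mature and early stages lay between −0.107 and 0.009 when 1 library was left out, and was 0.009 without TG6 mature CD8SP replicate 3. F5 minus TG6 for this ratio lay between −0.372 and −0.256, OT-1 minus TG6 for Psmb9/Psmb6 between −0.532 and −0.394, and F5 minus TG6 for Psmb10/Psmb7 between −0.403 and −0.216, and each changed its side of the threshold in some of these fits.

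Of single-gene differences, 130 were followed through all alternatives and 0 changed sign. Over all these alternatives 4369 values stayed on the same side of the threshold, 311 lost their call and 5 gained one. Another 185, neither called nor printed, were not, and changed sign 139 times in all.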
